A study of Mus musculus with 12 samples.

Results

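Cumulus cells and mural granulosa cells were compared in mice that had received no gonadotropin, with 3 arrays of each cell type (6 of the 12 arrays of the series), and the arrays were chosen by their titles. Both groups came from 22-day-old B6SJLF1 mice, pooled 5 to a sample, so a value describes a pool and not an animal. Each cumulus sample was stripped from 200 oocyte-cumulus complexes, the oocytes were discarded, and mural cells were taken as clumps of about the same mass. The other 6 arrays hold the same cell types 44 hours after 5 IU of equine chorionic gonadotropin (eCG) and they enter the estimate of the spread and the filter on low values as well as a comparison of the unprimed difference with that after eCG.

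Granulosa cells of a follicle that has formed an antrum fall into 2 populations. Cumulus cells surround the oocyte, are coupled to it by gap junctions and supply it with metabolites, while factors secreted by the oocyte act on them. Mural granulosa cells line the follicle wall, lie next to the basement membrane and are the population that later gains the receptor for luteinizing hormone and takes on most of the steroid production. In mice of this age that have received no hormone, follicles have not yet been exposed to an added follicle-stimulating signal, so the comparison asks how far these populations differ beforehand.

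The values are log2 intensities for 41115 transcripts named by Ensembl identifier, and many transcripts share identical values on all arrays. Such transcripts cannot be told apart, so each distinct set of values is counted once. Of 27365 distinct sets, 16809 passed the filter on low values (above the 40th percentile of the array, a log2 level of 6.66 to 6.73, on at least 3 of 12 arrays). No gene name accompanies the identifiers in the files, so at most 2 transcripts in each direction are named, and the usual markers of cumulus, mural, oocyte, theca and blood cells could not be read. The identity of the labelled cell types and the presence of other cells were therefore not tested. In such bulk samples, fewer cells of a kind and less RNA per cell cannot be told apart.

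The 2 cell types were alike in most of what was measured. Across the sets tested, cumulus and mural arrays correlated at 0.956 to 0.966, against 0.990 to 0.993 among the cumulus arrays and 0.972 to 0.988 among the mural arrays. The median absolute log2 difference between the group means was 0.204, and the root mean square difference was 0.398, or 0.364 after the part due to the spread between arrays was subtracted. For 10813 sets (64.3%) the 95% interval of the difference lay within 1.5-fold in either direction, and for 15443 sets (91.9%) it lay within 2-fold. These intervals bound the difference for the larger part of the transcripts measured, on the deposited scale, in which a change common to most transcripts has been removed.

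Against that common background, limma (Benjamini-Hochberg adjusted p under 0.05) called 3638 of the 16809 sets, which is 21.6%. Cumulus cells were higher in 1899 (11.3%) and mural cells in 1739 (10.3%). All 3 cumulus arrays lay above all 3 mural arrays in 4097 sets (24.4%), and the reverse held in 2984 sets (17.8%). The near balance of the called sets depends on how the arrays are scaled, since 63.9% of the calls were higher in cumulus cells with each array centred on its median, 52.7% when quantile normalization was repeated and 43.2% with cyclic loess, against 52.2% on the deposited values. Leaving out an array lowered most of the counts, and cumulus-higher calls numbered 1093, 1031 and 1025 without cumulus replicates 1, 2 and 3 and 1093 without mural replicate 1. Mural-higher calls numbered 1059 and 1101 without cumulus replicates 1 and 3 and 1132 without mural replicate 1. Without mural replicate 2 there were 1934 cumulus-higher and 1460 mural-higher calls, and without mural replicate 3 there were 1395 and 1786. Weighting the arrays by their estimated precision gave 4738 and 3871 calls. Mural replicate 1 then had a weight of 8.61 against 0.492 and 0.369 for mural replicates 2 and 3, so the weighted mural mean came mostly from 1 array.

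The split between the cell types depended on the size of the difference. Differences under 1.5-fold were more often higher in cumulus cells, with 1370 called sets against 825, while those of 1.5-fold or more were more often higher in mural cells, with 914 sets against 529. At 2-fold or more, 359 sets (2.14% of those tested) were higher in mural cells and 90 (0.535%) in cumulus cells, a ratio of 3.99. At 4-fold or more the numbers were 39 and 8. The median log2 difference of all called sets was -0.603 for those higher in mural cells and 0.475 for those higher in cumulus cells. Median centring gave a ratio of 3.22 at 2-fold, repeated quantile normalization 3.67 and cyclic loess 4.49. In all 3 of these scalings cumulus cells also held more of the called sets under 1.5-fold and mural cells more of those at 1.5-fold or above. No array decided the count of large differences: with each unprimed array left out in turn, the cumulus-higher sets of 2-fold or more numbered 87 to 105 and the mural-higher ones 309 to 423.

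**Figure D1:**
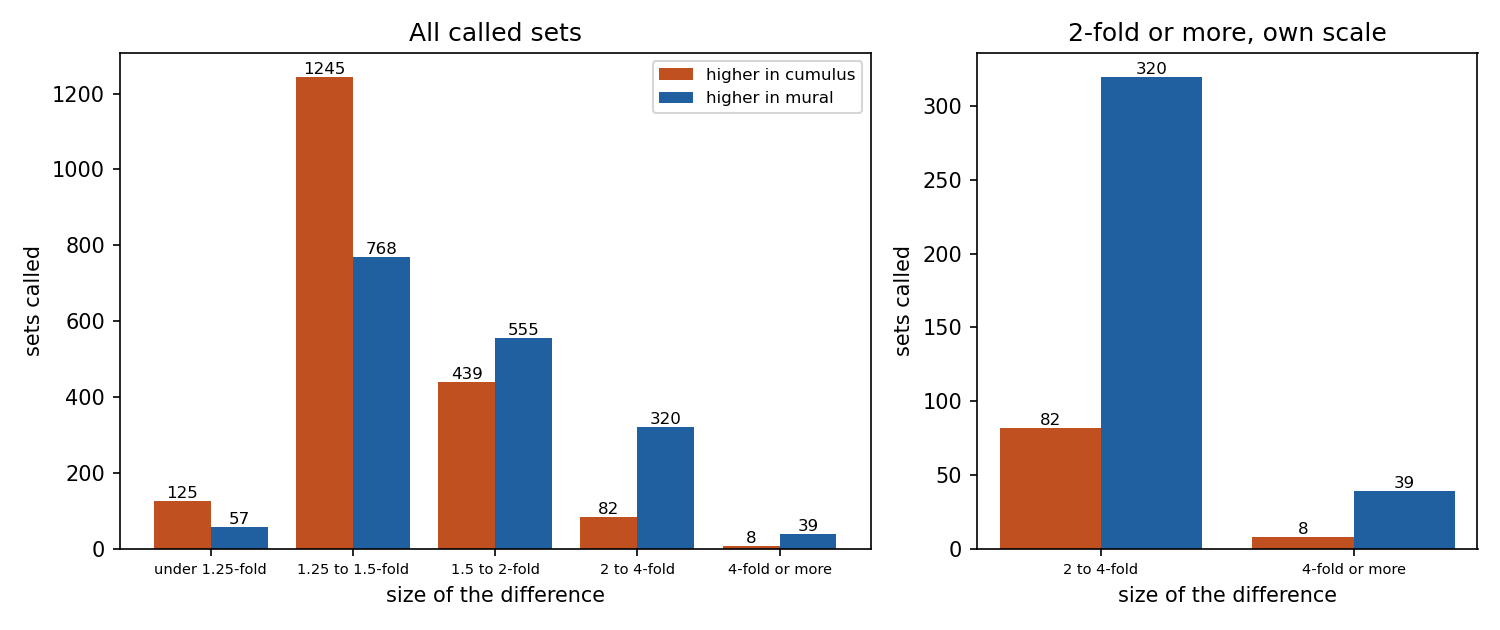
Number of distinct sets called by limma, by size of the difference between unprimed cumulus and mural cells, with the 2 largest size classes repeated at right on their own scale. Orange bars are sets higher in cumulus cells and blue bars sets higher in mural cells; cumulus cells lead at 1.25 to 1.5-fold (1245 against 768) and mural cells at 2 to 4-fold (320 against 82).

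The median size of the large differences was similar on the arrays of each group. Relative to the mean of the mural arrays, the 90 cumulus-higher sets of this size lay at a median log2 excess of 1.32, 1.46 and 1.19 on cumulus replicates 1, 2 and 3. Relative to the mean of the cumulus arrays, the 359 sets higher in mural cells lay at 1.34, 1.45 and 1.22 on mural replicates 1, 2 and 3. These sets were chosen by this difference, so the medians describe the arrays and do not test it. They also do not show how even a single set was between arrays. The groups did not overlap in 87 of the 90 and in 347 of the 359 (24.4% and 17.8% of all sets tested), which this choice favours. Of the 449 sets, 25.8% stood for more than 1 transcript, against 30.4% of all sets tested.

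The extent of the separation differs between these large sets. Of the 359 sets higher in mural cells, 224 had cumulus values above the filter level on all 3 arrays and 75 had them below it on all 3. Of the 90 higher in cumulus cells, mural values were above that level on all 3 arrays in 70 and below it on all 3 in 13. The filter level is a percentile of the array and not a limit of detection, so it does not say which values were detected. The sets below it passed the filter through other arrays. The median log2 level of the lower group was 7.34 in cumulus cells for the mural-higher sets and 8.0 in mural cells for the cumulus-higher sets. In both directions the lower group of most of these sets lay above the filter level on all 3 arrays.

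Direction also varied with the brightness of a probe set, which depends on its probes as well as on the amount of transcript. When the tested sets were split into 10 level bins of equal number by their mean over the 6 unprimed arrays, cumulus-higher calls made up 5.83% of the lowest bin (log2 levels of 4.42 to 6.91) and 19.1% of the highest (11.1 to 14.6). Mural-higher calls made up 11% of the lowest bin and 7.97% of the highest, and stayed between 9.10% and 12.2% in the other bins. The median log2 difference was 0.0229 in the lowest bin and 0.139 in the highest, while its median standard error was 0.123 and 0.110. Scaling moved this gradient. Cumulus-higher calls in the highest bin came to 28% under median centring but to 10.6% under repeated quantile normalization and 9.88% under cyclic loess, and the mural-higher share of that bin was then 6.60%, 11.7% and 12.8%. After either of the last 2 normalizations the highest bin held slightly more mural-higher than cumulus-higher calls, so the lead of cumulus cells among the brightest probe sets turned with the scaling. The rise of the cumulus-higher share from the lowest to the highest bin remained in each scaling, from 8.45%, 6.19% and 4.76% in the lowest.

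The large mural-higher differences had the opposite slope on the deposited values. At 2-fold or more they made up 3.27% of the lowest bin, the same share of the fourth and 0.892% of the highest, and 229 of the 359 lay in the lower 5 bins. The lowest bin (4.42 to 6.91) spans the filter level of 6.66 to 6.73. A set with a mean below that level passed through the arrays where it lay above it, unprimed or stimulated. This can favour large differences in that bin, which was not tested, so its share may not be a measure of level alone. The fourth bin spans 7.72 to 8.15, above the filter level. The cumulus-higher sets of that size numbered 38 in the lower 5 bins and 52 in the upper 5, and no bin held more than 14.

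**Figure D2:**
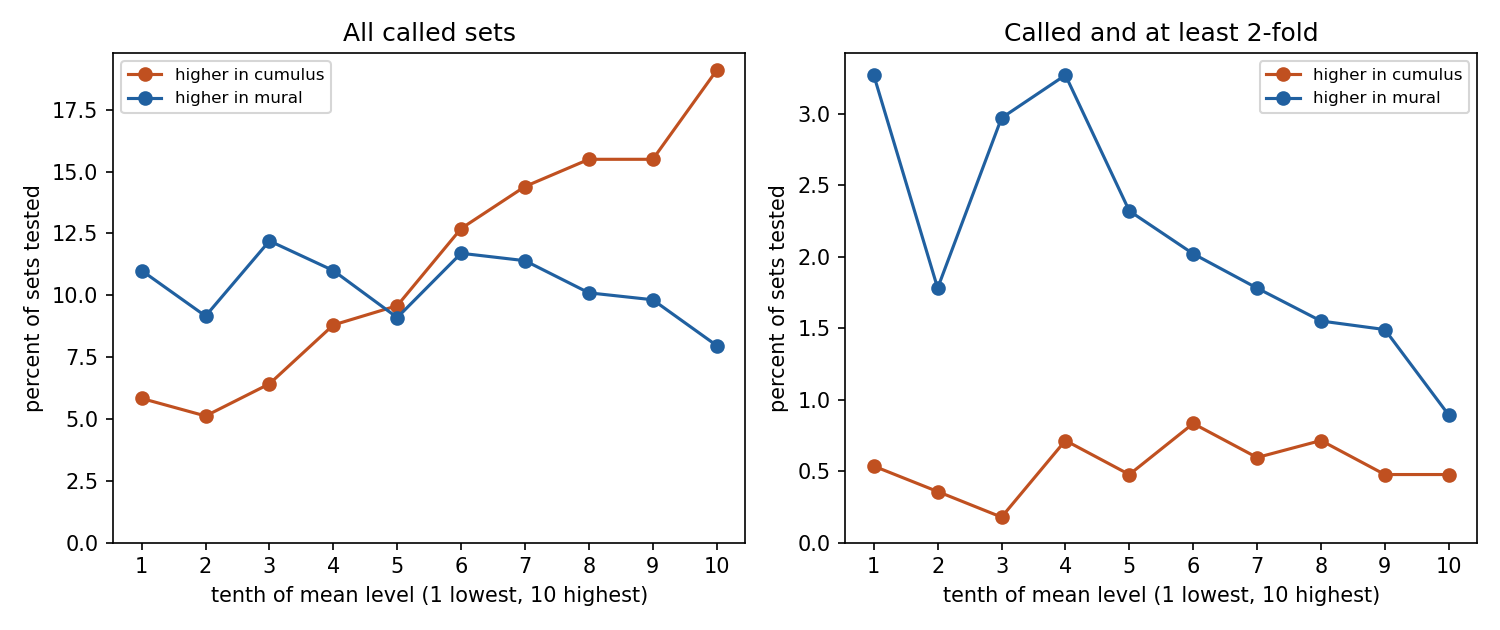
Percent of tested sets called in each of 10 bins of the mean log2 level over the 6 unprimed arrays, for all called sets (left) and for those at least 2-fold apart (right). The cumulus-higher share (orange) climbs from 5.83% to 19.1% on the deposited values, and the 2-fold mural-higher share (blue) falls from 3.27% to 0.892%. The filter on low values can favour large differences in the lowest bin, which was not tested.

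**Figure D3:**
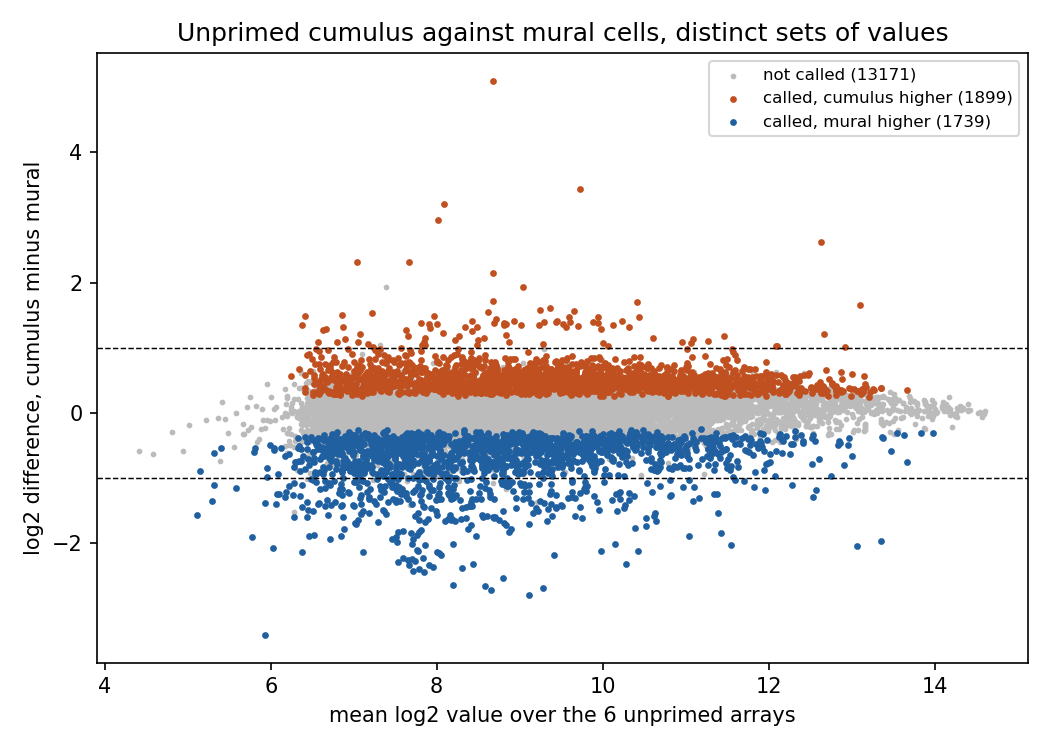
Log2 difference (cumulus minus mural) against mean log2 level for the 16809 distinct sets, with sets called higher in cumulus cells in orange, in mural cells in blue and the rest in grey. Dashed lines mark 2-fold; 359 called sets lie beyond the lower line and 90 beyond the upper one.

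Mural arrays varied more among themselves than cumulus arrays did. The median SD between replicates was 0.154 in mural and 0.10 in cumulus cells on the log2 scale, and the mural SD was the larger in 11612 sets (69.1%). Mural replicates 2 and 3 were the least alike of that group (correlation 0.972), while replicate 1 correlated at 0.988 and 0.984 with them. Among the mural-higher sets of 2-fold or more the median SD was 0.362 in mural and 0.204 in cumulus cells, and among those higher in cumulus cells it was 0.271 in cumulus and 0.246 in mural cells.

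The 4 transcripts described next were named by a rule that took, in each direction, the 2 largest differences with non-overlapping groups and with both group means above the filter level. They are known here by identifier only, and each had a set of values of its own (1 transcript a set).

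ENSMUST00000021674 was higher in cumulus cells and bright in both cell types. Its log2 values were 13.84, 14.19 and 13.82 on cumulus replicates 1, 2 and 3 and 11.47, 10.89 and 11.62 on mural replicates 1, 2 and 3. Every cumulus array lay more than 2 log2 units above every mural array. The log2 difference was 2.62 ± 0.18 (SE), or 6.16-fold, with a limma adjusted p of 6.2e-06.

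ENSMUST00000107094 had the largest cumulus excess among transcripts that met this rule. Its values were 11.10, 12.09 and 11.18 on the cumulus arrays and 7.68, 8.57 and 7.78 on the mural arrays. Replicate 2 was the highest array of each group, and every cumulus array lay above every mural array. The log2 difference was 3.44 ± 0.29 (SE), with a 95% interval of 2.81 to 4.08, which is 10.9-fold (limma adjusted p = 2.4e-05).

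On the mural side, ENSMUST00000039631 had values of 10.63, 10.04 and 10.86 on the mural arrays and 7.64, 7.76 and 7.74 on the cumulus arrays. The cumulus arrays were nearly equal and the mural arrays spread over a wider range, with no overlap. The log2 difference was -2.80 ± 0.22 (SE), so the level was 6.95-fold higher in mural cells (limma adjusted p = 1.8e-05).

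The values of ENSMUST00000142512 were 10.48, 9.62 and 9.91 on the mural arrays and 7.31, 7.16 and 7.41 on the cumulus arrays. Again all mural arrays lay well above all cumulus arrays. The log2 difference was -2.71 ± 0.27 (SE), or 6.53-fold higher in mural cells (limma adjusted p = 7.3e-05).

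After eCG, ENSMUST00000021674 was 9.25-fold and ENSMUST00000107094 5.69-fold higher in stimulated cumulus cells, with log2 differences of 3.21 ± 0.18 and 2.51 ± 0.29 (SE, limma adjusted p = 1.4e-07 and 4e-05). ENSMUST00000039631 was 3.24-fold higher in stimulated mural cells, with a log2 difference of -1.70 ± 0.22 (limma adjusted p = 1e-04). For ENSMUST00000142512 the log2 difference after eCG was -0.38 ± 0.27 (limma adjusted p = 0.29). The change in the difference with eCG was 0.59 ± 0.25, -0.94 ± 0.41, 1.10 ± 0.32 and 2.33 ± 0.39 (SE) for these transcripts in the order named. They were picked for large unprimed differences, which favours a smaller difference on other arrays, so these changes are a description and no test is given. The values of ENSMUST00000142512 show the widest change of the 4. The cumulus mean was 7.30 ± 0.13 (SD, n = 3) before and 8.30 ± 0.22 after eCG, and the mural mean after eCG was 8.68 ± 0.63, against unprimed mural values of 9.62 to 10.48. The stimulated mural arrays read 8.35, 8.29 and 9.41 and the stimulated cumulus arrays 8.06, 8.48 and 8.37, which overlap.

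**Figure D4:**
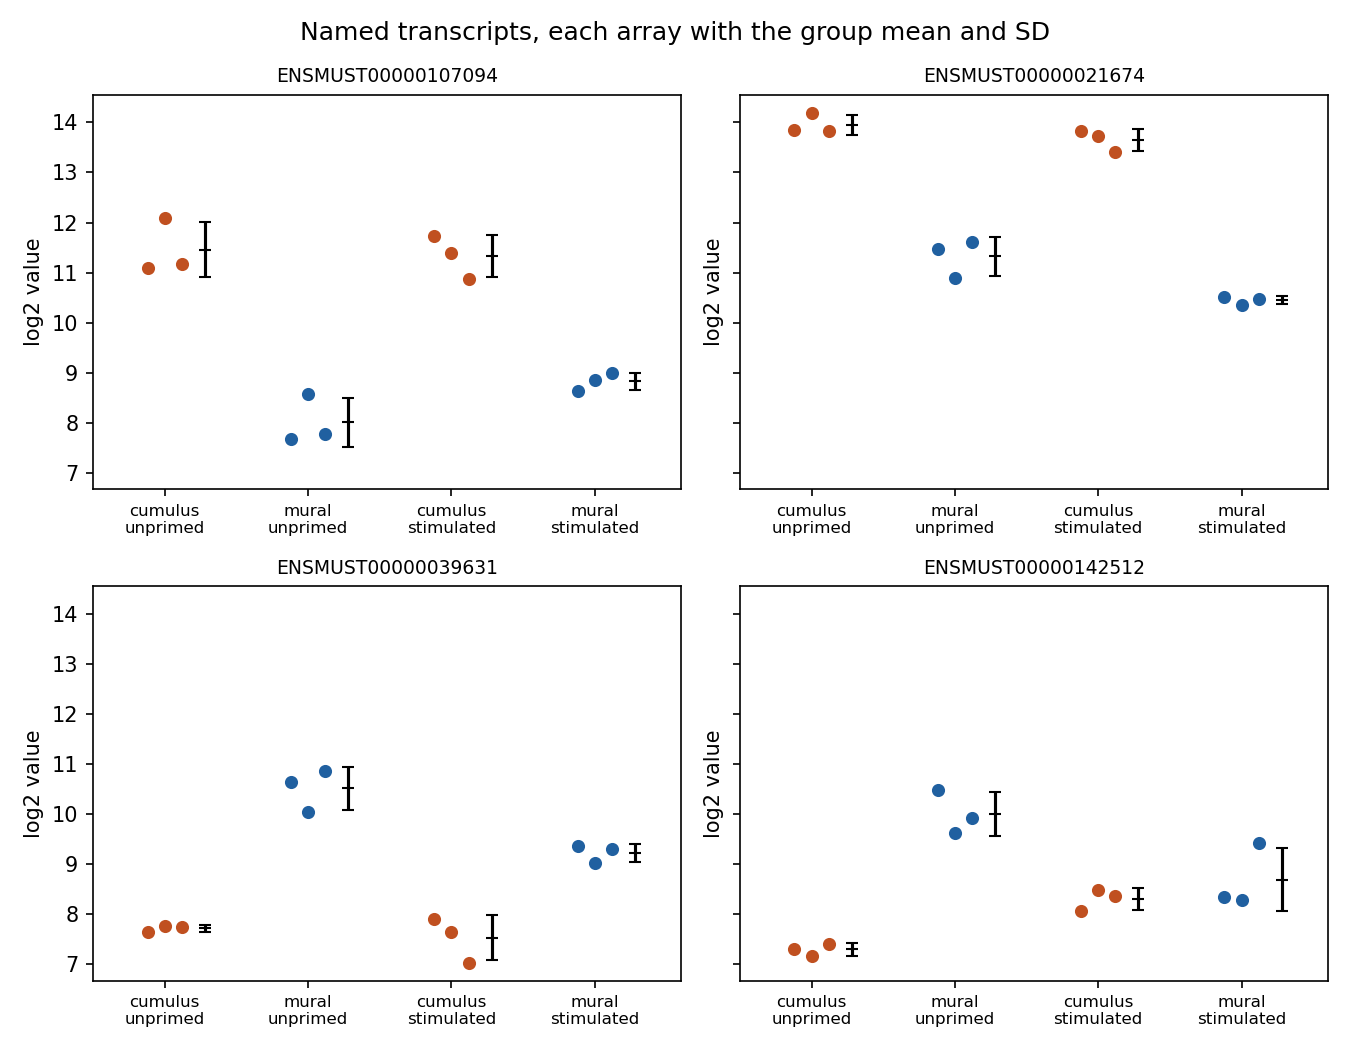
Log2 value of the 4 named transcripts on each of the 12 arrays (points, cumulus in orange and mural in blue), with the mean and SD of each group of 3 beside them. The unprimed groups do not overlap in any panel, whereas the stimulated groups overlap for ENSMUST00000142512.

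The unprimed differences were then read on the arrays of stimulated mice. The group means of the 2 stages share no array, but in the model both sets of calls share the filter and the estimate of the spread of each set. Of the 90 sets at least 2-fold higher in unprimed cumulus cells, 80 (88.9%) were called higher in stimulated cumulus cells, where 24.5% of all sets were called in that direction, and 88 had the same sign. Of the 359 sets higher in unprimed mural cells, 300 (83.6%) were called higher in stimulated mural cells, against 17.8% of all sets, and 355 had the same sign. Not one of the 449 was called in the opposite direction. With each stage fitted on its own 6 arrays, an alternative chosen after seeing the data, 81 of 86 (94.2%, against 22.6% of all sets) and 295 of 347 (85.0%, against 16.3%) were called again. The median log2 difference went from 1.34 to 1.53 for the cumulus-higher sets and from -1.32 to -1.26 for the mural-higher sets. The difference was larger after eCG in 50 of the 90 and in 159 of the 359.

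Small unprimed differences were in part called again as well. Among called sets of 1.25 to 1.5-fold, 76.3% of the cumulus-higher and 65.5% of the mural-higher sets were called in the same direction after eCG. Of all sets tested, 24.5% and 17.8% were called in these directions after eCG. A small difference is called only where the shared estimate of the spread is small, which favours a second call. The fits of each stage on its own arrays were not counted by these size classes. At 1.5 to 2-fold these shares were 87.0% and 71.7%, and at 2 to 4-fold 87.8% and 85.0%. Of the 39 mural-higher sets of 4-fold or more, 28 (71.8%) were called again, and all 39 kept their sign, while 8 of 8 cumulus-higher sets of that size were called again. Opposite calls numbered 0 and 2 below the 1.25-fold bound, 2 and 9 at 1.25 to 1.5-fold and 1 and 4 at 1.5 to 2-fold, cumulus-higher sets first.

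The 59 mural-higher sets of 2-fold or more that were not called after eCG had a median log2 difference of -1.35 before and -0.460 after. Their median level fell by 0.765 in mural cells and was 0.356 higher in cumulus cells, and the mural level was lower in 46 of the 59. The 300 that were called again had median changes of 0.135 in mural and 0.101 in cumulus cells. Because the 59 were picked by their stimulated values, these figures describe them and test nothing. Their median SD between unprimed mural arrays was 0.491, against 0.322 in the 300. The 10 cumulus-higher sets not called again had a median change of -0.389 in cumulus and 0.231 in mural cells.

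**Figure D5:**
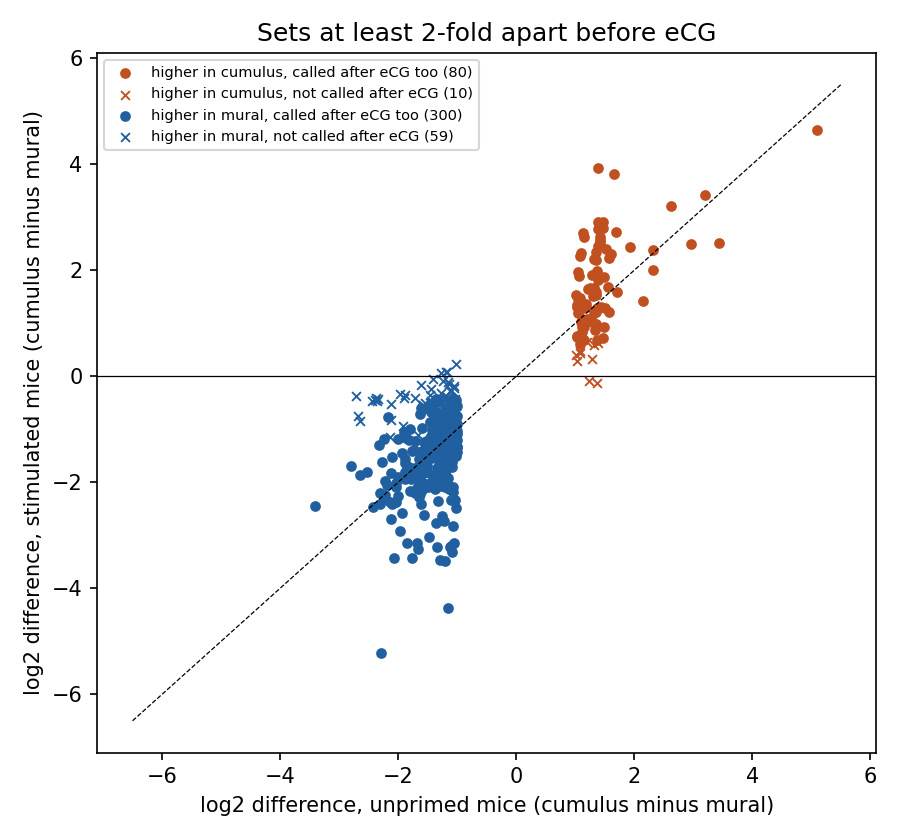
Log2 difference (cumulus minus mural) in stimulated mice against that in unprimed mice for the 449 sets at least 2-fold apart before eCG. Filled points were called in the same direction after eCG (80 orange, 300 blue) and crosses were not (10 and 59); the dashed line marks equal differences.

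The interaction, which tests whether the difference itself changed with eCG, was called for 3.26% of all sets. It was called for 17 of the 90 cumulus-higher sets, of which 14 had the larger difference after eCG, and for 42 of the 359 mural-higher sets, of which 22 did. These sets were chosen on unprimed arrays that the interaction also uses, so the shares are not set against the background.

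Read the other way, sets chosen on the stimulated arrays already separated the unprimed arrays. Here too the calls share the filter and the estimate of the spread, which favours a second call. The fits of each stage on its own arrays were not counted in this direction. Of 508 sets (3.02%) called at least 2-fold higher in stimulated cumulus cells, 491 (96.7%) had the same sign in unprimed mice, and 320 (63.0%, against 11.3% of all sets) were called. Their median log2 levels were 9.45, 9.54 and 9.39 on unprimed cumulus replicates 1, 2 and 3 and 8.85, 9.02 and 8.63 on mural replicates 1, 2 and 3. Of 569 sets (3.39%) called at least 2-fold higher in stimulated mural cells, 550 (96.7%) had the same sign and 395 (69.4%, against 10.3%) were called, with 1 called in the opposite direction. Their median levels were 8.69, 8.75 and 8.62 on the unprimed mural and 7.57, 7.79 and 7.63 on the unprimed cumulus arrays. In both lists the medians of the 2 groups of arrays did not overlap. The unprimed differences were smaller, with medians of 0.564 against 1.20 for the first list and -0.875 against -1.38 for the second, and the stimulated values had chosen the lists. A 2-fold difference was already called before eCG in 67 of the 508 and in 239 of the 569. Of all sets tested, 0.535% and 2.14% were called at least 2-fold apart in these directions before eCG.

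A few control rows carry the names of mouse genes and repeats, and they were fitted together with the transcripts (25968 rows in all, 21.2% of them called). Beta-actin, a cytoskeletal protein, was measured at 14.28 ± 0.01 (SD, n = 3) in cumulus and 14.29 ± 0.03 in mural cells by its 3′ row. The 3′ row of Gapdh, a glycolytic enzyme, read 14.24 ± 0.02 and 14.13 ± 0.04, a log2 difference of 0.11 ± 0.08 (SE, limma adjusted p = 0.32, and 0.038 with array weights). Its middle and 5′ rows differed by 0.19 ± 0.09 (adjusted p = 0.16) and 0.33 ± 0.17 (adjusted p = 0.19). The 3′ row of pyruvate carboxylase, which makes oxaloacetate from pyruvate, read 7.96, 7.78 and 7.92 on the cumulus arrays and 8.14, 8.23 and 8.23 on the mural arrays. Its groups did not overlap, but the log2 difference of -0.31 ± 0.12 (SE) had a limma adjusted p of 0.078. That row was called in 1 of 11 alternatives, with array weights (limma adjusted p = 0.014). The middle and 5′ rows of the same gene had differences of 0.13 and 0.18, opposite in sign. The 3 rows of the transferrin receptor, which takes up iron, had means of 4.34 to 6.41 and did not pass the filter.

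The row named for the B1 repeat and 1 of the 2 rows named for the B2 repeat were called higher in mural cells. These are short interspersed elements that are present in many copies in the mouse genome and occur within many introns and untranslated regions. The B1 row read 11.88, 11.87 and 11.71 on the cumulus arrays and 12.35, 12.54 and 12.10 on the mural arrays, a log2 difference of -0.51 ± 0.16 (SE, limma adjusted p = 0.039). The called B2 row read 10.26, 10.24 and 10.13 against 10.50, 10.65 and 10.50, a difference of -0.34 ± 0.11 (adjusted p = 0.048), and the brighter B2 row differed by -0.16 ± 0.08 (adjusted p = 0.18). Under cyclic loess that brighter row differed by -0.31 (adjusted p = 0.02), and with array weights its adjusted p was 0.027. Groups did not overlap in either called row. Both calls were close to the threshold. The B1 row was called under all 3 scalings, the replicate block and array weights (adjusted p of 0.00071 to 0.044). The lowest of these came from array weights, where the mural mean rests mostly on replicate 1. It had an adjusted p of 0.079, 0.077 and 0.12 without cumulus replicates 1, 2 and 3 and of 0.098 and 0.12 without mural replicates 1 and 2. With 1 unprimed array left out the B2 row had adjusted p-values of 0.089, 0.097, 0.15, 0.088, 0.12 and 0.065, and with median centring 0.068. The sign was negative in every alternative run for these 3 rows.

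None of the added control rows tested was called, but limma took each row alone. A shift shared by a class of rows was not tested. All 18 rows for transcripts usually spiked into the hybridization mix (bioB, bioC, bioD, cre) were lower on the cumulus arrays (median log2 difference -0.23). Their array means were 11.09, 11.07 and 11.09 against 11.31, 11.42 and 11.19 on the mural arrays, with no overlap. All 24 rows for bacterial RNAs with a poly(A) tail (dap, lys, phe, thr), usually spiked in ahead of amplification, had higher means on the cumulus arrays (median 0.266). The median was 0.112 without mural replicate 3, with 18 of 24 rows higher, 0.196 without mural replicate 1, also with 18, and 0.428 without mural replicate 2. For these the array means overlapped, at 7.80, 7.59 and 7.69 in cumulus and 7.32, 7.84 and 7.23 in mural cells. Limma called 0 of the 18 rows tested in each of these classes, and 7 and 2 of them had an unadjusted p under 0.05. With the mean of the second class as a covariate, 98 cumulus-higher and 433 mural-higher sets of 2-fold or more were called. The part of the hybridization controls in the results was not tested.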

How the data were processed

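The deposited log2 values, 1 per probe set, came from the affy package's RMA, per the submitters' processing notes. RMA corrects background, quantile-normalizes and summarises probes, so a shift common to most transcripts is lost. Per the labels' protocols, 20 ng of RNA went through consecutive rounds of amplification, which can alter relative levels. Array model, probe set definition and tool versions were not given in the sources used here. Array medians were 7.30 to 7.38, and 3 arrays per group limit the precision. No pair of unprimed arrays shared over 0.1% of values. The RefSeq table (GRCm38.p6) matched 0 identifiers, so the planned gene lists were not counted.

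One limma 3.58.1 model (R 4.3.3) with a mean per group was fitted to all 12 arrays, with Benjamini-Hochberg adjustment over 25917 rows; a call is an adjusted p under 0.05, and identical rows are counted once. The procedure was tested on simulated data. Members and rules were chosen with earlier results of these data known. Where identifiers carry no gene name, the naming rule took in each direction the 2 largest called differences with non-overlapping groups and both means above the filter level of every unprimed array; control rows named for mouse genes were added. Alternatives were another filter, 3 scalings, unprimed arrays alone, a replicate block, array weights, 2 covariates and leaving out each unprimed array. Figures used matplotlib 3.10.9.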

Additional observations from a re-analysis of the deposited data

Results flagged for a closer look

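ENSMUST00000142512 was marked because its difference between the cell types was not the same before and after eCG. The log2 difference changed by 2.33 ± 0.39 (SE), from 6.53-fold higher in unprimed mural cells to -0.38 ± 0.27 in stimulated mice. The transcript had been named for its large unprimed difference, on arrays that this change also uses, so no p-value is given for it. With each unprimed array left out in turn, its unprimed difference was -2.47 to -2.90. Groups of 3 arrays were not searched for outlying values.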

How the results depend on the processing

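Under the 18 alternatives the counts of sets at least 2-fold apart stayed within 1.5 times the main counts, at 84 to 105 for cumulus and 309 to 433 for mural cells. The 4 named transcripts kept their sign and their call throughout (largest limma adjusted p = 0.0014). They had been chosen for large called differences on these same arrays, which favours this result. The counts of all calls moved with array weights, to 4738 and 3871, where mural replicate 1 had a weight of 8.61 and replicates 2 and 3 had 0.492 and 0.369. With 1 unprimed array left out they ranged from 1025 to 1934 for cumulus and 1059 to 1786 for mural cells. The root mean square difference was 0.331 without a filter (0.299 corrected for spread), 0.415 with array weights and 0.420 with the covariate of bacterial controls, and leaving out arrays gave 0.400 to 0.414 (corrected, 0.338 to 0.382). The median difference of all sets was 0.0453 as deposited, 0.0914 under median centring, 0.0509 under repeated quantile normalization and 0.0113 under cyclic loess.

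The labels do not say that a replicate number marks a shared pool. Deviations of same-numbered unprimed arrays correlated at 0.0823, 0.312 and 0.412 over distinct sets (0.110, 0.315 and 0.417 over all rows), and 5 of the 6 arrays correlated best with their own number, a hint from the data and not the design. The first value over distinct sets is below the limit of 0.1, so the numbers were not taken as pairs. With the replicate block 2034 sets were higher in cumulus and 1986 in mural cells (2260 and 2173 on the unprimed arrays alone). At 2-fold or more the blocked counts were 91 and 371.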
